A study of Mus musculus with 24 samples.

Results

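Fibroblastic reticular cells (FRCs) of the Peyer's patch, the fibroblasts of the lymphoid tissue in the wall of the small intestine, were compared by RNA sequencing between mice given polyethylene glycol (PEG) to drink and mice given none. The comparison takes the 14 libraries labelled FRC out of 24 in the series, 7 from PEG mice and 7 from control mice, and every gene measured in them. PEG was offered in the drinking water at 10% (w/v) for 3 days with free access, to lower fluid flow, and the control animals were unperturbed, per the labels. For each mouse 1000 cells were sorted and made into a library. Strain, sex and age of the mice and the surface markers of the sort are not given in the sources used here. No measure of flow is among the files, so flow and any other action of PEG cannot be told apart. Each group is named below by its treatment and the library number of the labels (PEG libraries 1, 2, 3, 10, 11, 18 and 19, control libraries 4, 5, 6, 12, 13, 20 and 21).

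FRCs build a mesh of collagen-rich conduits that carries fluid and small molecules through lymphoid tissue, and they wrap these fibres themselves. They also make the chemokines and survival factors that hold lymphocytes in place, such as Cxcl13 for B cells, Cxcl12, and Tnfsf13b (BAFF). Fibroblasts sense fluid shear and tension through integrin adhesions, stretch-activated channels and the transcriptional co-activators YAP and TAZ, and TGF-beta is a main inducer of their matrix genes. PEG is not absorbed to any great extent and holds water in the gut lumen by osmosis.

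The FRC libraries held 15823379 to 21710946 gene-assigned reads in PEG and 12416032 to 18052362 in control. The markers given for FRCs were present in all 14 libraries. Pdgfra stood at 349 to 809 CPM in PEG and 419 to 702.7 CPM in control, and Pdpn at 186 to 274 CPM in PEG and 205 to 248 CPM in control (CPM, counts scaled to a common library size). Col1a1 stood at 881 to 3079 CPM in PEG and 1144 to 3306 CPM in control, and Cxcl13 at 114 to 403 CPM in PEG and 109.8 to 501 CPM in control. In the 10 libraries of high endothelial venules (HEVs) of the same series Pdgfra stayed at or below 1.61 CPM and Pdpn at or below 0.322 CPM. Smooth muscle genes were present too, Acta2 at 1488 to 2409.6 CPM in PEG and 1284 to 2345 CPM in control. Myh11 ran from 210.1 to 501 CPM in PEG and from 329.8 to 692 CPM in control. The T cell zone chemokine Ccl19 was close to absent, with 53 reads in all in PEG and 77 in control. The libraries separated by sequencing pool: pool 1 (PEG 1 to 3, control 4 to 6) scored from -75.0 to -35.4 along the first principal component (20.0% of the variance). Pools 2 and 3 (PEG 10, 11, 18 and 19, control 12, 13, 20 and 21) scored from 15.5 to 66.3. Pool is inferred from the library number, held as many PEG as control FRC libraries, and is a covariate in the fits unless stated.

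Across all genes, none differed between PEG and control FRCs after correction for multiple testing in edgeR, while DESeq2 and limma-voom called a few. Of 14595 genes tested, 0 (0.0%) passed an adjusted p under 0.05 in edgeR's quasi-likelihood test, and the smallest adjusted p was 0.12. An unadjusted p under 0.05 was reached by 989 genes (6.78%), 561 higher (3.84%) and 428 lower (2.93%) in PEG, where evenly spread p-values would give 729.75. The DESeq2 Wald test called 55 genes (0.377%) and limma-voom with quality weights 26 (0.178%), of which 6 were called by both: Adamdec1, Eif3l, Gpx3, Jag1, Lpl and Mgp. Among the limma-voom calls, 10 were Paneth cell defensin genes (Defa genes), epithelial transcripts described further below. The median log2 fold change was 0.014. The median 95% confidence interval, not adjusted for the number of genes, reached 0.95 to either side. For genes with wider intervals a change of that size could not be told from 0.

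**Figure D1:**
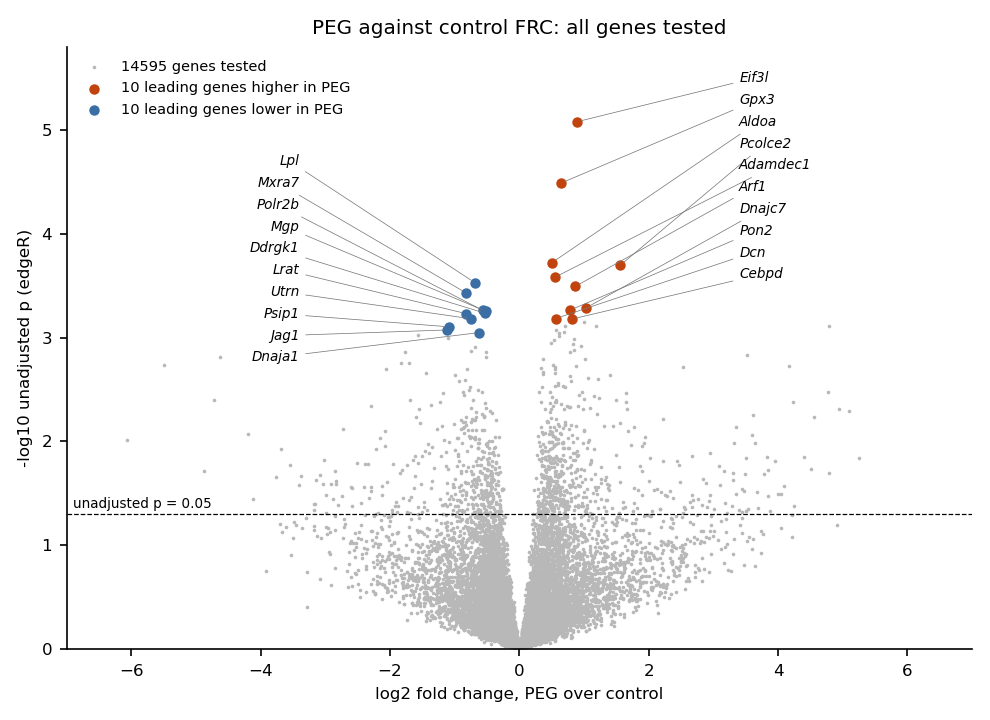
Each point is a gene, by its log2 fold change of PEG over control FRC (x axis) and its unadjusted p in edgeR on a -log10 scale (y axis), and the dashed line marks an unadjusted p of 0.05. The 10 genes of smallest p in each direction are named, and Eif3l and Gpx3 stand highest, with p of 8.3e-06 and 3.3e-05.

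On the higher side the 10 genes of smallest p included a subunit of a translation factor, a secreted glutathione peroxidase, a glycolytic enzyme and matrix-associated genes. They are given here by value, since none passed the adjusted threshold in edgeR, while DESeq2 called all 20 leading genes described in this and the next paragraph. Eif3l (gene ID 223691), a subunit of the translation initiation factor eIF3, ran from 186 to 357 CPM in PEG (median 257) and from 126 to 164 CPM in control (median 143). Eif3l had a fold change of 0.89 ± 0.14 on the log2 scale (SE, adjusted p = 0.12). Every PEG library lay above every control library. Gpx3, a secreted selenium-dependent glutathione peroxidase, ran from 2999.7 to 3581 CPM in PEG (median 3204) and from 1495 to 2703 CPM in control (median 1941). Gpx3 had a fold change of 0.64 ± 0.11 on the log2 scale (SE, adjusted p = 0.24). Its groups did not overlap either. Aldoa, the aldolase of glycolysis, ran from 416 to 561 CPM in PEG (median 520.2) and from 279.7 to 414 CPM in control (median 333). Aldoa had a fold change of 0.50 ± 0.10 on the log2 scale (SE, adjusted p = 0.48). The highest control library stood just under the lowest PEG library. Dcn, the collagen-binding proteoglycan decorin, ran from 8279 to 14501 CPM in PEG (median 10114) and from 5877 to 7980.3 CPM in control (median 7638). Dcn had a fold change of 0.56 ± 0.13 on the log2 scale (SE, adjusted p = 0.48), again without overlap. Such separation was rare: it held for 14 of 14595 genes (0.0959%), 9 with PEG above control (0.0617%) and 5 with PEG below (0.0343%). Pcolce2, which enhances the cleavage of procollagen, had the largest fold among the leading genes and overlapped: it ran from 39.1 to 133 CPM in PEG (median 111) and from 8.66 to 69.1 CPM in control (median 49.6). Pcolce2 had a fold change of 1.56 ± 0.32 on the log2 scale (SE, adjusted p = 0.48). Its lowest value in PEG came from library 3, and 6 of 7 PEG libraries lay above the control median. Adamdec1, a secreted metalloprotease typical of gut fibroblasts, ran from 11589.7 to 19928 CPM in PEG (median 15029) and from 6456 to 15615 CPM in control (median 10706). Adamdec1 had a fold change of 0.55 ± 0.12 on the log2 scale (SE, adjusted p = 0.48). The remaining leading genes were Arf1, a GTPase of Golgi traffic (0.87 ± 0.19), Dnajc7, a co-chaperone (1.04 ± 0.24), Pon2, an intracellular paraoxonase (0.78 ± 0.18), and Cebpd, a transcription factor of the acute phase response (0.81 ± 0.19), as log2 fold changes with SE.

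On the lower side stood a lipase, a Notch ligand, a retinoid enzyme and matrix-associated genes. Lpl, lipoprotein lipase, which releases fatty acids from triglyceride particles, ran from 165 to 303 CPM in PEG (median 265) and from 309 to 507 CPM in control (median 379). Lpl had a fold change of -0.69 ± 0.15 on the log2 scale (SE, adjusted p = 0.48). All PEG libraries lay below all controls, by a narrow margin. Jag1, a membrane-bound ligand of Notch receptors, ran from 6.89 to 49.6 CPM in PEG (median 22.6) and from 19.5 to 115 CPM in control (median 70.0). Jag1 had a fold change of -1.11 ± 0.27 on the log2 scale (SE, adjusted p = 0.48). In pool 1 Jag1 stood at 6.89, 21.4 and 11.8 CPM in PEG and at 28.3, 19.5 and 24.5 CPM in control. Jag1 in pools 2 and 3 stood at 22.6, 43.0, 32.2 and 49.6 CPM in PEG and at 70.0, 75.2, 115 and 112 CPM in control. In pools 2 and 3 every PEG library lay below every control, and in pool 1 the groups overlapped, at a lower level in both groups. Psip1, a chromatin-binding co-activator, ran from 13.2 to 33.8 CPM in PEG (median 23.5) and from 31.1 to 71.9 CPM in control (median 52.8). Psip1 had a fold change of -1.08 ± 0.26 on the log2 scale (SE, adjusted p = 0.48), with a narrow overlap of the groups. Lrat, which esterifies retinol for storage, ran from 158 to 379.7 CPM in PEG (median 315) and from 321 to 719 CPM in control (median 572). Lrat had a fold change of -0.82 ± 0.19 on the log2 scale (SE, adjusted p = 0.48). Mgp, an inhibitor of matrix calcification, ran from 2065 to 3431 CPM in PEG (median 2889.9) and from 2430.2 to 7457 CPM in control (median 4232). Mgp had a fold change of -0.52 ± 0.12 on the log2 scale (SE, adjusted p = 0.48). All PEG libraries lay below the control median. The others were Mxra7 (-0.82 ± 0.18), the RNA polymerase II subunit Polr2b (-0.57 ± 0.13), the endoplasmic reticulum protein Ddrgk1 (-0.54 ± 0.12), the dystrophin relative Utrn (-0.75 ± 0.18) and the co-chaperone Dnaja1 (-0.63 ± 0.15), as log2 fold changes with SE, and had an adjusted p of 0.48 each. Leaving out any single library changed no leading gene's fold by more than 1.31 times, the largest move being that of Mgp, at -0.40 without control library 21.

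**Figure D2:**
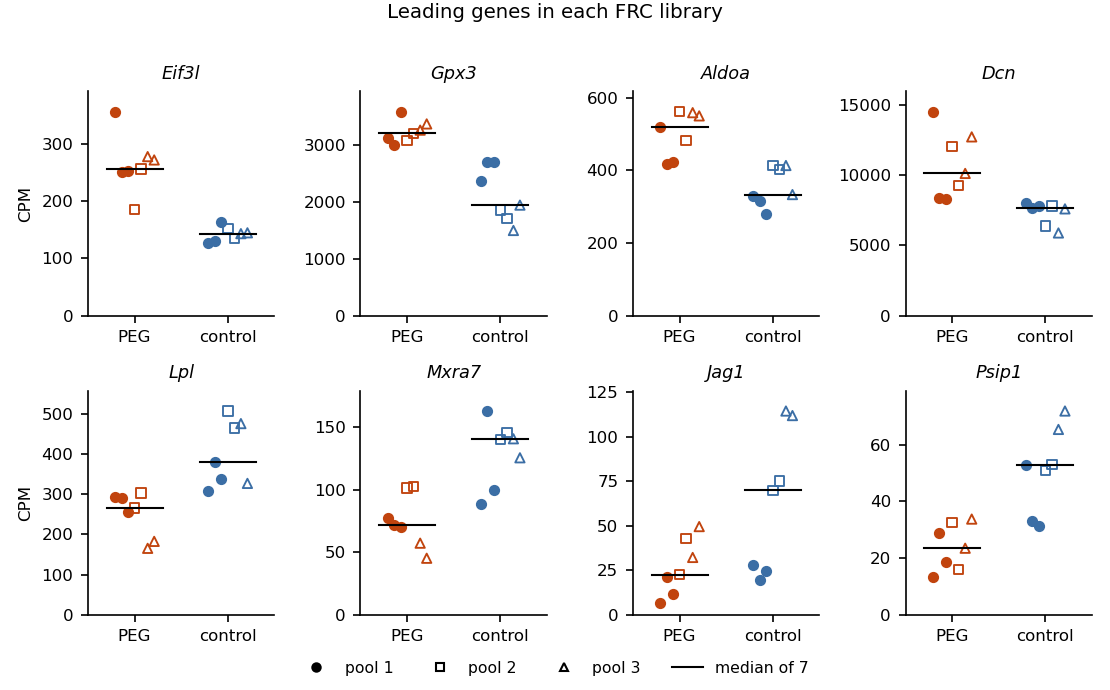
CPM (y axis, from 0) of 8 leading genes in each FRC library, PEG on the left and control on the right of each panel, with symbols for the inferred sequencing pool and a line at the median of 7. Eif3l, Gpx3, Aldoa, Dcn and Lpl show no overlap of the groups, while Psip1 overlaps narrowly and Jag1 stands lower in pool 1 in both groups.

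Translation factors held more members of small p than most lists, mainly higher in PEG. In the list of eIF3 subunits and other translation factors, 7 higher and 1 lower of 35 tested (22.9%) had an unadjusted p under 0.05, beside 6.78% of all genes (3.84% higher and 2.93% lower), and the list median was 0.11 beside 0.014. Percentages after the counts of other lists below are this same share of the list, to be read against the 6.78%. The lists were chosen with earlier results of these data known, and most of them exceeded 6.78%. Fibroblast identity genes, for example, stood at 19.0% and the unfolded protein response at 16.7%. A share above 6.78% therefore does not by itself set a list apart from the others. Besides Eif3l these were the start-codon factor Eif5 (0.56 ± 0.17), the eIF3 subunits Eif3i (0.49 ± 0.16), Eif3f (0.30 ± 0.10) and Eif3g (0.40), the helicase partner Eif4b (0.37) and the elongation factor Eef1a1 (0.34 ± 0.12). The exception was Eif3a, the largest eIF3 subunit, at -0.30, so the subunits of the complex had both signs. Fitted in sequencing pool 1 alone, Eef1a1 was at -0.077. Eif3f ran from 601 to 753 CPM in PEG (median 651) and from 442 to 629.9 CPM in control (median 576), with all 7 PEG libraries above the control median. Eif3i ran from 196 to 344 CPM in PEG (median 239) and from 141 to 251 CPM in control (median 173). Each of DESeq2 and limma-voom called 1 member of the list, Eif3l.

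Many mRNAs of the translation machinery begin with a stretch of C and T at their start site. The start regions of Eif3l, Eif3f and Eef1a1, members of the list that were higher at an unadjusted p under 0.05, are shown for this feature, from 60 bases before the annotated start to 20 bases from it, with the unbroken run of C or T that covers the start in capitals (RefSeq, GRCm38.p6). The regions are chr15:79075163-79075242 (plus strand), chr7:108934355-108934434 (plus strand) and chr9:78481705-78481784 (minus strand). The fourth sequence, read with the chemokines below, is that of Cxcl1 at chr5:90891145-90891264 (plus strand), from 100 bases before the start to 20 from it, where capitals mark overlapping matches of the kappaB consensus on both strands.
Eif3l: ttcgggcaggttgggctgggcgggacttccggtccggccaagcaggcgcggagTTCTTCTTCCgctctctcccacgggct
Eif3f: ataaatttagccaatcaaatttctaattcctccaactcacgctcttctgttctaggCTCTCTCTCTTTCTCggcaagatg
Eef1a1: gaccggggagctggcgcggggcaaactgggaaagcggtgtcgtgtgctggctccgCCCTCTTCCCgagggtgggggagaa
Cxcl1: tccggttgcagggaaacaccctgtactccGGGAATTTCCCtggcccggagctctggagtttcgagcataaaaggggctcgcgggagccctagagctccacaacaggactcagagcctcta
The run spans 10 bases in Eif3l, 15 in Eif3f and 10 in Eef1a1. A run of at least 10 covered the start in 3 of 32 translation factors with a promoter in the table (9.38%), the 3 shown. It did so in 340 of 13731 tested genes (2.48%). Most factors of the list, higher or not, thus had none. The 3 are shown because they hold the run, and a link between the run and the PEG effect was not tested. The kappaB consensus, the site class of NF-kappaB dimers, was searched on both strands from 250 bases before to 50 from the start. It occurred in 7 of 24 listed chemokine and cytokine genes (29.2%) and in 1442 of 13731 tested genes (10.5%). These are matches of letters in a window, not sites measured here.

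Genes of energy metabolism and oxidant defence had members of small p on the higher side alone. In the glycolysis and hypoxia list, 5 higher and 0 lower of 27 tested (18.5%) had an unadjusted p under 0.05, beside 3.84% higher and 2.93% lower of all genes (median 0.11): Aldoa, the lactate dehydrogenase Ldha (0.52 ± 0.14), the pyruvate kinase Pkm (0.34 ± 0.12), the peptide hormone Adm (0.50 ± 0.18) and the isomerase Tpi1 (0.32). Ldha ran from 522 to 1031 CPM in PEG (median 598) and from 241 to 880.0 CPM in control (median 439), and all 7 PEG libraries lay above the control median. In the oxidative defence list, 5 higher and 0 lower of 32 tested (15.6%) did (median 0.09, and -0.0025 without PEG library 1): Gpx3, the selenium carrier Selenop (0.65 ± 0.19), the glutathione transferase Gstm1 (0.36 ± 0.09), the glutathione reductase Gsr (0.98) and Gpx2 (3.60 ± 1.20). Selenop was at 0.065 in pool 1 alone. Gpx2 is an epithelial glutathione peroxidase, and it ran from 4.12 to 122.7 CPM in PEG (median 9.02) and from 0 to 11.4 CPM in control (median 0.215). Epithelial transcripts varied widely within both groups. All 28 tested members of the intestinal epithelium marker list had a positive log2 fold change, 5 of them at an unadjusted p under 0.05, with a median of 1.76. The summed CPM of that list ran from 122 to 9508 in PEG (median 965) and from 66.2 to 3771 in control (median 251), and the mean of its log2 sum was higher in PEG by 1.62 (exact permutation test, two-sided, p = 0.20, 9 marker lists compared, adjusted p = 0.67). Pool was not taken into account in this test, nor in the same test of other marker lists below. Over all 14 libraries the groups overlapped: PEG library 11 summed to 122 CPM, and 3 control libraries exceeded the PEG median. In pool 1 the sum was 278, 1557 and 478 CPM in PEG and 97.2, 251 and 75.3 CPM in control. In pool 3 it was 9508 and 5783 CPM in PEG libraries 18 and 19 and 3771 and 1048 CPM in control. PEG thus lay above control in both of these pools. In pool 2 the groups overlapped, at 965 and 122 CPM in PEG and 1038 and 66.2 CPM in control. With the epithelial level as a covariate, Aldoa stood at 0.45, Gpx3 at 0.69 and Eif3l at 0.92 on the log2 scale, and the list medians were 0.12 for the translation factors, 0.13 for glycolysis and 0.01 for oxidative defence. In these bulk libraries more cells of a type and more RNA per cell cannot be told apart.

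Matrix genes divided between collagens, mostly lower, and matrix glycoproteins, which went both ways. Of 26 tested collagen genes 24 had a negative log2 fold change, with 6 lower and 0 higher at an unadjusted p under 0.05 (23.1%) and a list median of -0.22. Of all genes 48.6% had a negative log2 fold change and 2.93% were lower at that p. The 6 lower collagens were Col5a2 (-0.51 ± 0.13) and Col5a3 (-0.58 ± 0.19), chains of the type V collagen that sets fibril diameter, the fibril-associated Col14a1 (-0.35 ± 0.13) and Col12a1 (-0.42), the reticular fibre collagen Col3a1 (-0.44 ± 0.17) and the basement membrane chain Col4a1 (-0.37). Col5a2 ran from 488 to 939.5 CPM in PEG (median 519) and from 742 to 1004 CPM in control (median 925), with 6 of 7 PEG libraries below the control median. Col1a1, the main fibrillar chain, was at -0.09 ± 0.14 (adjusted p = 0.96) with overlapping groups. The collagen median was -0.07 in pool 1 and -0.44 in pools 2 and 3, and it kept its sign, from -0.33 to -0.16, with any library left out. Among matrix glycoproteins and proteoglycans, 5 higher and 7 lower of 43 tested (27.9%) had an unadjusted p under 0.05 (median -0.09). Higher were Dcn, the microfibril protein Mfap4 (0.59), Postn (0.44), Efemp1 (0.39) and Fbln1 (0.34 ± 0.10). Lower were Mgp, Ccn2, Thbs1, the large proteoglycan Vcan (-0.47), the tenascin Tnc (-0.41 ± 0.13), elastin Eln (-0.32) and Sparcl1 (-0.27). Fn1, fibronectin, was at -0.14 ± 0.11 (adjusted p = 0.89). Enzymes of collagen processing and remodelling gave 3 higher and 3 lower of 35 tested (17.1%, median -0.03), with Pcolce2, Adamdec1 and the aggrecanase Adamts5 (0.66) higher, and the procollagen N-proteinase Adamts2 (-0.54 ± 0.17) and the metalloproteinase inhibitor Timp2 (-0.30) among the lower.

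Genes that respond to TGF-beta, tension and adhesion were lower where they had a small p, with focal adhesion genes mixed. The TGF-beta list gave 0 higher and 4 lower of 31 tested (12.9%, median -0.08), among them the activin subunit Inhba, the feedback gene Pmepa1 and Ccn2. Inhba ran from 1.75 to 22.7 CPM in PEG (median 19.5) and from 18.2 to 97.5 CPM in control (median 48.2). Inhba had a fold change of -1.76 ± 0.45 on the log2 scale (SE, adjusted p = 0.49). Its lowest value came from PEG library 3, and all 7 PEG libraries lay below the control median. Pmepa1 ran from 52.8 to 168 CPM in PEG (median 138) and from 165 to 266 CPM in control (median 189.9). Pmepa1 had a fold change of -0.78 ± 0.22 on the log2 scale (SE, adjusted p = 0.57), with 7 of 7 PEG libraries below the control median. Tgfb1 itself was near the detection limit, at most 3.56 CPM in PEG and 5.04 CPM in control. YAP and TAZ targets gave 0 higher and 5 lower of 27 tested (18.5%, median -0.04): Myof (-0.80 ± 0.26), Igfbp3 (-0.64 ± 0.22), Ccn2 (-0.88 ± 0.33), Thbs1 (-0.75 ± 0.29) and Rbms3 (-0.32). Thbs1 was at 0.19 in pool 1 alone. The classical target Ccn1 was at 0.17 ± 0.11 (adjusted p = 0.84) and Yap1 at 0.18 ± 0.26. Ccn2, connective tissue growth factor, ran from 10.7 to 23.6 CPM in PEG (median 18.0) and from 17.0 to 64.4 CPM in control (median 30.8), with all PEG libraries below the control median. Mechanosensitive channels and flow sensors gave 0 higher and 5 lower of 18 tested (27.8%), beside 2.93% of all genes, with a median of -0.28: the stretch-activated Piezo1 (-0.68 ± 0.31), Pkd1 (-0.51 ± 0.24), Trpc1 (-1.89 ± 0.88), the gap junction protein Gja1 (-0.44 ± 0.18) and caveolin Cav1 (-0.44 ± 0.20). Piezo1 was at -0.42 without control library 5. Piezo1 ran from 9.35 to 48.4 CPM in PEG (median 27.4) and from 19.9 to 59.0 CPM in control (median 46.7), with 6 of 7 PEG libraries below the control median. The flow-sensitive channel gene Trpv4 had 6 reads in all in PEG and 2 in control. The median of this list was -0.10 in pool 1 and -0.51 in pools 2 and 3. Endothelium markers were on the lower side as well, 10 of 13 tested members with a median of -0.83, and their sum is given with Madcam1 below. In HEV libraries Piezo1 ran from 106 to 161 CPM in PEG and from 111 to 159.6 CPM in control. Cav1 in HEV ran from 853 to 1496 CPM in PEG and from 964 to 1455 CPM in control, so both genes stood above every FRC library there. Gja1 overlapped between the cell types and Pkd1 was lower in every HEV library, at most 35.1 CPM. The part of endothelial RNA in these values was not tested.

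In the focal adhesion list, 2 higher and 4 lower of 39 tested (15.4%) had an unadjusted p under 0.05 (median -0.22), with the adhesion linker Vcl, the integrin chain Itgb1 (-0.31 ± 0.10), the actin cross-linker Actn1 (-0.60 ± 0.24) and Kank2 (-0.59) lower and the integrin-linked kinase Ilk (0.40 ± 0.12) and the collagen receptor chain Itga1 (0.64) higher. The list median was 0.014 in pool 1 and -0.33 in pools 2 and 3. Vcl ran from 35.4 to 84.5 CPM in PEG (median 52.7) and from 61.9 to 139.6 CPM in control (median 78.8). Vcl had a fold change of -0.76 ± 0.21 on the log2 scale (SE, adjusted p = 0.57), and 1 PEG library exceeded the control median. Contractile genes gave 0 higher and 3 lower of 20 tested (15.0%, median -0.19): the myosin light chain kinase Mylk (-0.58 ± 0.17), desmin Des (-0.36 ± 0.14) and smooth muscle myosin Myh11 (-0.36 ± 0.15). Mylk was at -0.067 in pool 1 alone. Acta2, smooth muscle actin, was at 0.18 ± 0.15 (adjusted p = 0.9). The 3 lower genes are also markers of smooth muscle cells, and whether the share of such cells differed was not tested.

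**Figure D3:**
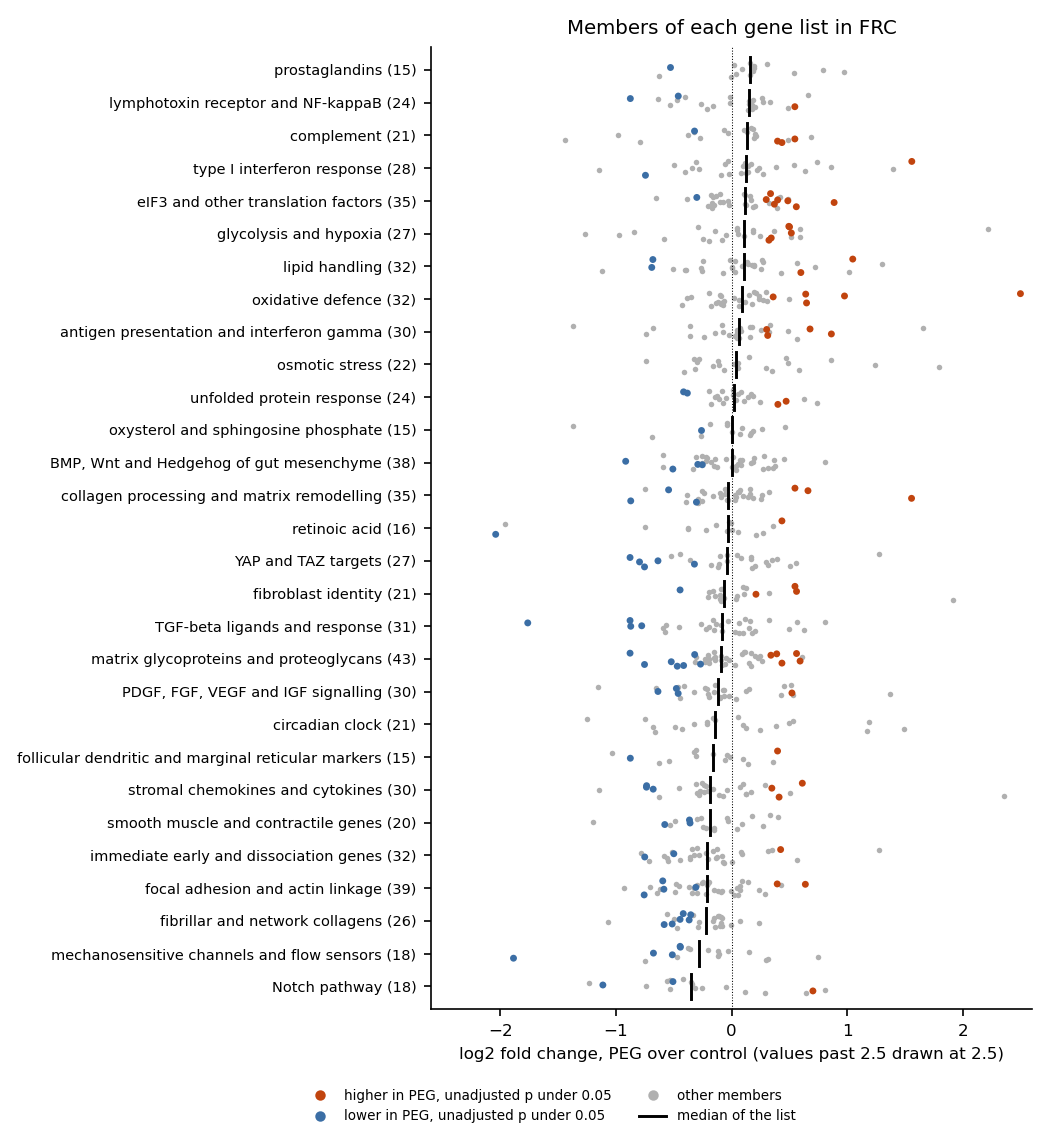
Log2 fold change of PEG over control FRC (x axis) for every tested member of each gene list (rows, with the number tested), ordered by the list median, which is drawn as a black bar. Coloured points had an unadjusted p under 0.05; the collagens and mechanosensitive genes have such members on the lower side alone, glycolysis and oxidative defence on the higher side alone.

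Chemokine and cytokine genes of lymphoid stroma went both ways, 3 higher and 3 lower of 30 tested (20.0%, median -0.18). The list median was 0.0018 in pool 1 and -0.13 in pools 2 and 3. With the epithelial level as a covariate it was 0.11 over all pools. Cxcl14, a chemokine of epithelia and fibroblasts, ran from 157 to 345 CPM in PEG (median 214) and from 235 to 556 CPM in control (median 382). Cxcl14 had a fold change of -0.68 ± 0.17 on the log2 scale (SE, adjusted p = 0.49), and every PEG library lay below the control median. The neutrophil chemokine Cxcl1 (-0.74 ± 0.23) and the monocyte chemokine Ccl7 (-0.73) were also lower. Higher were the scavenging chemokine receptor Ackr4 (0.61 ± 0.20), Cxcl12 (0.35 ± 0.12) and Tnfsf13b (0.41 ± 0.18). Cxcl12 was at -0.01 ± 0.14 in pool 1 and 0.62 ± 0.12 in pools 2 and 3 (adjusted p = 0.4 for the difference). The B cell chemokine Cxcl13 was at -0.16 ± 0.35 (adjusted p = 0.98), the survival cytokine Il7 at -0.11 ± 0.43, Ltbr, the lymphotoxin-beta receptor, at 0.27 ± 0.18, and the adhesion molecules Vcam1 and Icam1 at 0.14 ± 0.20 and -0.02 ± 0.15. Tnfsf11 (RANKL), a cytokine of marginal reticular cells, was at -0.63 ± 0.74, and Ccl21a stayed at or below 4.36 CPM in PEG and 4.40 CPM in control. Il7 and Icam1 changed sign with single libraries left out, as listed under the processing below. The NF-kappaB list gave 1 higher and 2 lower of 24 tested (12.5%, median 0.15), the TNF receptor Tnfrsf1a higher (0.55 ± 0.15) and the ubiquitin ligase Birc2 (-0.46 ± 0.18) and Madcam1 (-0.88 ± 0.41) lower. Madcam1, an addressin of venules that marginal reticular cells also express, ran from 22.5 to 71.0 CPM in PEG (median 46.0) and from 12.9 to 153 CPM in control (median 77.7). The endothelium marker list, which holds Madcam1, was mostly on the same side, 10 of 13 tested members lower with a median of -0.83. Its summed CPM ran from 316 to 509 in PEG (median 399.8) and from 256 to 854 in control (median 469.8), against 24294 to 34097 in HEV libraries of PEG mice and 27160.0 to 33556 in those of control mice. In FRC it had a mean log2 sum of -0.16 relative to control (exact permutation test, two-sided, p = 0.5). The part of endothelial RNA in the Madcam1 value was not tested.

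Immune and complement genes had a few higher members. Antigen presentation genes gave 4 higher and 0 lower of 30 tested (13.3%, median 0.07): the class I heavy chain H2-D1 (0.30 ± 0.09), the class II chain H2-Ab1 (0.68 ± 0.23), the GTPase Irgm1 (0.86 ± 0.32) and the immunoproteasome subunit Psmb8 (0.31 ± 0.14, and 0.19 without PEG library 1). H2-D1 ran from 2939 to 4049 CPM in PEG (median 3559.8) and from 2208 to 3122 CPM in control (median 2825), with all PEG libraries above the control median. Complement genes gave 3 higher and 1 lower of 21 tested (19.0%, median 0.14), with Cfb (0.55 ± 0.21), the C1 inhibitor Serping1 (0.44 ± 0.16) and Clu (0.40 ± 0.15) higher and the protease C1s1 (-0.32 ± 0.12) lower, while C3 was at -0.03 ± 0.15. Fitted in pool 1 alone, Serping1 was at -0.15 and Clu at -0.13. Type I interferon genes gave 1 higher and 1 lower of 28 tested (7.14%), close to the 6.78% of all genes, namely Cmpk2 (1.56 ± 0.63) and Zbp1 (-0.74 ± 0.26). Myeloid markers, whose cells also express class II genes such as H2-Ab1, summed from 116 to 325 in PEG (median 194) and from 52.4 to 295 in control (median 173) CPM, with a mean log2 sum higher in PEG by 0.40 (p = 0.33 in the exact two-sided permutation test, 0.67 when adjusted over the 9 marker lists). The part of myeloid RNA in the antigen presentation values was not tested. Lymphocyte reads were few: the summed CPM of T and innate lymphoid markers ran from 8.11 to 39.5 in PEG (median 19.1) and from 2.86 to 30.0 in control (median 19.0). That of B and plasma cell markers ran from 0.83 to 68.7 in PEG (median 20.2) and from 5.13 to 46.2 in control (median 28.7). The T cell marker Cd8a and the B cell factor Pax5 had no read in any FRC library.

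In the Notch, the BMP, Wnt and Hedgehog, and the growth factor lists, more of the members of small p were lower than higher. The Notch list gave 1 higher and 2 lower of 18 tested (16.7%), with a median of -0.35 that ran from -0.53 without PEG library 2 to -0.17 without PEG library 3. Jag1 and the target gene Hes1 (-0.51 ± 0.18) were the lower ones. Its median was -0.44 in pool 1 and -0.26 in pools 2 and 3. Hes1 ran from 193 to 635 CPM in PEG (median 408) and from 361 to 700.6 CPM in control (median 512), with 5 of 7 PEG libraries below the control median. The BMP, Wnt and Hedgehog list gave 0 higher and 4 lower of 38 tested (10.5%, median 0.01), namely the BMP target genes Id3 (-0.25 ± 0.10) and Id2 (-0.29 ± 0.13), Wnt5a (-0.51 ± 0.21) and Foxl1 (-0.92 ± 0.38), a transcription factor of subepithelial mesenchyme. Growth factor signalling genes gave 1 higher and 3 lower of 30 tested (13.3%), the IGF binding proteins Igfbp7 (-0.46 ± 0.16) and Igfbp3 lower, Igfbp6 (0.52 ± 0.22) higher, and the receptor Fgfr2 (-0.48 ± 0.20) lower. In the lipid list, 2 higher and 2 lower of 32 tested (12.5%): Lpl and the exporter Abcg1 (-0.68 ± 0.32) lower, the exporter Abca1 (1.05 ± 0.43) and the sterol regulator Srebf1 (0.60 ± 0.24) higher. Abca1 was at 2.35 ± 0.48 in pool 1 and 0.10 ± 0.39 in pools 2 and 3 (adjusted p = 0.38 for the difference). The retinoic acid list gave 1 higher and 1 lower of 16 tested (12.5%), Aldh1a1 (0.44 ± 0.17) higher and the retinol transporter Stra6 (-2.04 ± 0.82) lower, with Aldh1a2, the enzyme of lymphoid stroma, at -0.02 ± 0.13. Prostaglandin genes gave 0 higher and 1 lower of 15 tested (6.67%), the receptor Ptger2 (-0.54 ± 0.21), and oxysterol and sphingosine phosphate genes 0 higher and 1 lower of 15 tested (6.67%), the phosphatase Plpp3 (-0.27 ± 0.11), both at the 6.78% background, with the oxysterol enzymes Ch25h at -0.04 ± 0.35 and Cyp7b1 at -0.19 ± 0.15. Fibroblast identity genes gave 3 higher and 1 lower of 21 tested (19.0%, median -0.07), and follicular dendritic and marginal reticular markers 1 higher and 1 lower of 15 tested (13.3%, median -0.16).

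The osmotic stress and circadian clock lists had no member of small p, while the unfolded protein response list had more than the background share. In the osmotic stress list 0 higher and 0 lower of 22 tested had an unadjusted p under 0.05, with a median of 0.04. Nfat5, the transcription factor of the response to hypertonicity, ran from 40.7 to 64.1 CPM in PEG (median 44.4) and from 36.0 to 106 CPM in control (median 56.7). It had a log2 fold change of -0.30 ± 0.24 (adjusted p = 0.89), and of -0.07 without control library 21, which held its highest value. Its targets, the inositol carrier Slc5a3 and the taurine carrier Slc6a6, were at 0.06 ± 0.29 and 0.30 ± 0.29. The kinase Sgk1 was at 0.02 ± 0.18 and the amino acid carrier Slc38a2 at -0.16 ± 0.17. The 95% interval for Nfat5 ran from -0.81 to 0.20, and that for Slc5a3 from -0.55 to 0.67. Circadian clock genes gave 0 higher and 0 lower of 21 tested (median -0.14). The unfolded protein response list gave 2 higher and 2 lower of 24 tested (16.7%, median 0.02), with Pdia6 (0.47 ± 0.14) and Xbp1 (0.40 ± 0.13) higher and Canx (-0.41 ± 0.14) and Ddit3 (-0.38 ± 0.13) lower. Immediate early genes, which tissue digestion can induce, gave 1 higher and 2 lower of 32 tested (9.38%, median -0.21): Dusp1 (0.42 ± 0.14) higher, Ier5 (-0.75 ± 0.25) and Fosl2 (-0.50 ± 0.20) lower, and Ptgs2 at -0.63 ± 0.32. Their median was 0.25 in pool 1 and -0.54 in pools 2 and 3.

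The PEG effect was then estimated separately in pool 1 (3 PEG, 3 control) and in pools 2 and 3 (4 PEG, 4 control), which share no library. Across the 14595 genes the effects in the pools had no common order, with a Spearman rho of 0.013 as a description across genes, and they had the same sign in 50.4% of genes. Of 1075 genes at an unadjusted p under 0.05 in pool 1 (7.37%), 593 (55.2%) had the same sign in pools 2 and 3. Of 1162 such genes in pools 2 and 3 (7.96%), 576 (49.6%) had the same sign in pool 1. The lists shared 104 genes, 9.67% of the first and 8.95% of the second, and 58 of these had the same sign. The difference between the effects was itself tested: 1 gene (0.00685%) passed an adjusted p under 0.05, Pex10, and 1157 (7.93%) had an unadjusted p under 0.05. The 20 leading genes had the same sign in both sets of pools, which their choice on all 14 libraries favours, and 4 of the 20 differed between the pools at an unadjusted p under 0.05.

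Cxcl13, a gene that marks B cell zone stroma, had opposite signs in the pools. In pool 1 Cxcl13 stood at 218, 149.8 and 138 CPM in PEG and at 239, 491 and 501 CPM in control. Cxcl13 in pools 2 and 3 stood at 403, 279.7, 114 and 338 CPM in PEG and at 275, 218, 109.8 and 137 CPM in control. In pool 1 all PEG libraries lay below all controls, and in pools 2 and 3 the groups overlapped. The log2 fold change was -1.28 ± 0.37 in pool 1 (adjusted p = 0.5) and 0.67 ± 0.32 in pools 2 and 3 (adjusted p = 0.63). The effects differed by 1.95 ± 0.49 with an adjusted p of 0.35. The value over all 14 libraries, -0.16 ± 0.35, therefore averages effects of opposite sign. Pex10, a peroxisome assembly factor, was nearly unread in the controls of pool 1. In pool 1 Pex10 stood at 23.4, 34.0 and 18.9 CPM in PEG and at 0, 0.143 and 0.0822 CPM in control. Pex10 in pools 2 and 3 stood at 19.9, 35.5, 15.3 and 29.0 CPM in PEG and at 15.6, 13.2, 40.9 and 23.4 CPM in control. Its fitted fold there rests on a control level near 0. Among the other genes named for this difference, the stress-responsive nuclear receptor Nr4a1 was at 0.47 ± 0.23 in pool 1 and -1.13 ± 0.20 in pools 2 and 3 (adjusted p = 0.31 for the difference). Fkbp5, a gene induced by glucocorticoids, was at -0.87 ± 0.29 in pool 1 and 1.29 ± 0.26 in pools 2 and 3 (adjusted p = 0.26 for the difference). In pool 1 Fkbp5 stood at 71.5, 97.3 and 131 CPM in PEG and at 193, 212 and 142 CPM in control. Fkbp5 in pools 2 and 3 stood at 72.6, 53.1, 53.2 and 61.6 CPM in PEG and at 25.9, 16.6, 26.7 and 29.8 CPM in control. PEG lay below control in pool 1 and above control in pools 2 and 3, without overlap in either. Tfg and Zup1 showed the same order of signs as Fkbp5, Tfg at -0.56 ± 0.28 in pool 1 and 1.38 ± 0.25 in pools 2 and 3, and Zup1 at -1.97 ± 0.44 in pool 1 and 1.39 ± 0.38 in pools 2 and 3.

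Within pools 2 and 3, 13 genes (0.0891%) passed an adjusted p under 0.05 in the model of all 14 libraries, an effect chosen for description after its values were seen. Arf1, Serping1, Clu, Eef1a1, Gpx3 and the phosphatase scaffold Ppp2r1a rose in PEG (6 genes, 0.0411%), and Mylk, Cxcl1, Lpl, Thbs1, the respiratory subunit Cox6c, the ribosomal protein Rpl26 and parathymosin Ptms fell (7 genes, 0.048%). In pool 1 Arf1 stood at 268, 219 and 235 CPM in PEG and at 169, 245 and 206 CPM in control. Arf1 in pools 2 and 3 stood at 199, 199.5, 215 and 197 CPM in PEG and at 82.6, 76.2, 74.9 and 83.6 CPM in control. The 4 controls of pools 2 and 3 lay below all other FRC libraries, giving 1.35 ± 0.16 (adjusted p = 0.0072). In pool 1 Serping1 stood at 2713, 2823 and 2812 CPM in PEG and at 2743, 3425 and 3062 CPM in control. Serping1 in pools 2 and 3 stood at 2755, 2326, 2024 and 2466 CPM in PEG and at 1235, 1375, 1210.1 and 1405 CPM in control. Its effect was 0.87 ± 0.11 in pools 2 and 3 (adjusted p = 0.01) and -0.14 ± 0.13 in pool 1, with an adjusted p of 0.21 for the difference. In pool 1 Gpx3 stood at 3115, 2999.7 and 3581 CPM in PEG and at 2368, 2703 and 2701 CPM in control. Gpx3 in pools 2 and 3 stood at 3076, 3204, 3259 and 3368 CPM in PEG and at 1853, 1704, 1495 and 1941 CPM in control. Gpx3 was higher in PEG in each pool without overlap, at 0.32 ± 0.12 in pool 1 and 0.88 ± 0.11 in pools 2 and 3 (adjusted p = 0.0072). In pool 1 Cxcl1 stood at 739, 808 and 949.9 CPM in PEG and at 778, 886 and 842 CPM in control. Cxcl1 in pools 2 and 3 stood at 250.2, 399, 249 and 190.3 CPM in PEG and at 508, 615, 854 and 677 CPM in control. The effect on Cxcl1, whose promoter is shown above, was -1.30 ± 0.22 in pools 2 and 3 (adjusted p = 0.046) and -0.01 ± 0.24 in pool 1. In pool 1 Thbs1 stood at 224, 225 and 248 CPM in PEG and at 209.5, 185 and 214 CPM in control. Thbs1 in pools 2 and 3 stood at 89.5, 205, 122 and 88.2 CPM in PEG and at 269, 332, 398 and 390.5 CPM in control. For Thbs1, thrombospondin-1, an activator of TGF-beta, the effects were -1.47 ± 0.25 in pools 2 and 3 (adjusted p = 0.046) and 0.20 ± 0.28 in pool 1.

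Most of these genes also differed between the pools in control mice. Of the 13, 10 had controls of pool 1 that did not overlap controls of pools 2 and 3. Lpl, Cxcl1 and Clu were the exceptions. Such separation was not counted over all genes, so no background share stands beside it. In 11 of the 13 the PEG libraries of pools 2 and 3 were shifted towards the controls of pool 1. In 8 their mean lay between the control means of pool 1 and of pools 2 and 3. Mylk is an example, with means of 492.9 CPM in PEG and 515 CPM in control of pool 1, and of 535 CPM in PEG and 1040.1 CPM in control of pools 2 and 3. Cox6c is another, with means of 190.4 CPM in PEG and 178 CPM in control of pool 1, and of 368 CPM in PEG and 680.0 CPM in control of pools 2 and 3. These counts use the controls of pools 2 and 3 on both sides, and the part of pool differences in the calls was not tested. The calls depended on single settings and libraries. With the i5 index as a further covariate 3 of the 13 remained (Arf1, Gpx3 and Serping1), with the epithelial level 4 (these and Ppp2r1a), and with the 8 libraries of pools 2 and 3 fitted alone 0. Leaving out control library 13 left 0 calls, leaving out PEG library 19 or control library 20 left 2, Arf1 and Gpx3, leaving out PEG library 11 gave 49 and PEG library 1 gave 20. Leaving out any other library gave 3 to 5. All 7 PEG FRC libraries and 3 of 7 controls carried the same i5 index, and 4 controls another. The labels give a clipping percentage of 1.50 to 2.08 for the PEG libraries, against 1.41 to 1.91 for the 3 controls that share their index and 3.45 to 5.41 for the 4 others. Reads of mitochondrial genes made up 1.71, 0.739, 1.65 and 2.24% of the gene-assigned reads in PEG libraries 10, 11, 18 and 19, against 1.01, 1.08, 1.13 and 1.14% in control libraries 12, 13, 20 and 21. The share in pool 1 ran from 1.23 to 1.26% in PEG and from 1.16 to 1.29% in control. Its part in the calls was not tested.

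**Figure D4:**
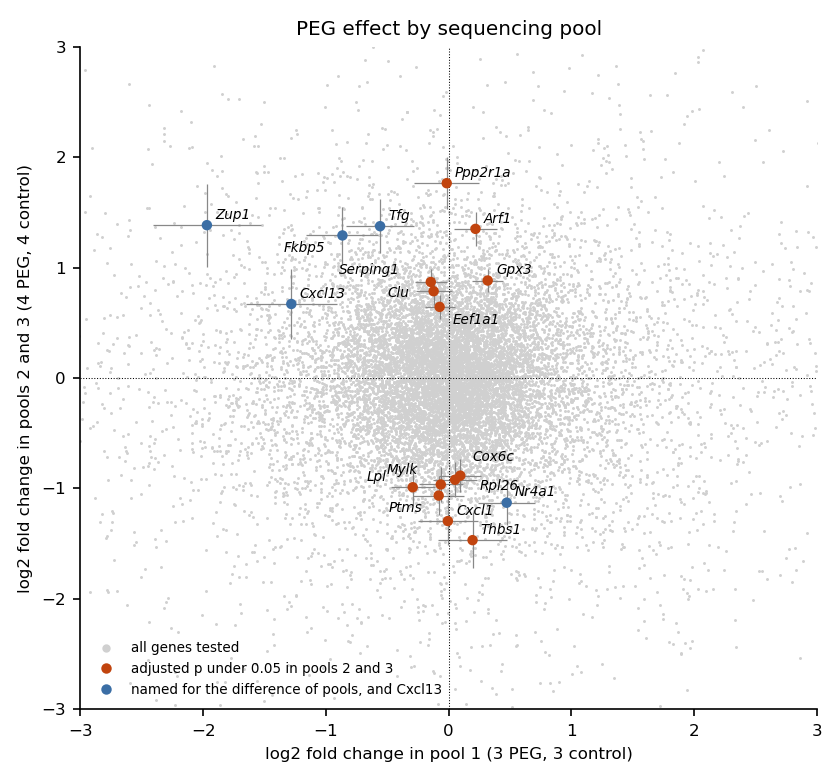
Each point is a gene by its log2 fold change of PEG over control in pool 1 (x axis) and in pools 2 and 3 (y axis), with SE bars for named genes; genes past 3 on either axis lie outside the frame. The cloud has no slope (Spearman rho 0.013), and the 13 genes called in pools 2 and 3 lie between -0.29 (Lpl) and 0.32 (Gpx3) in pool 1.

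**Figure D5:**
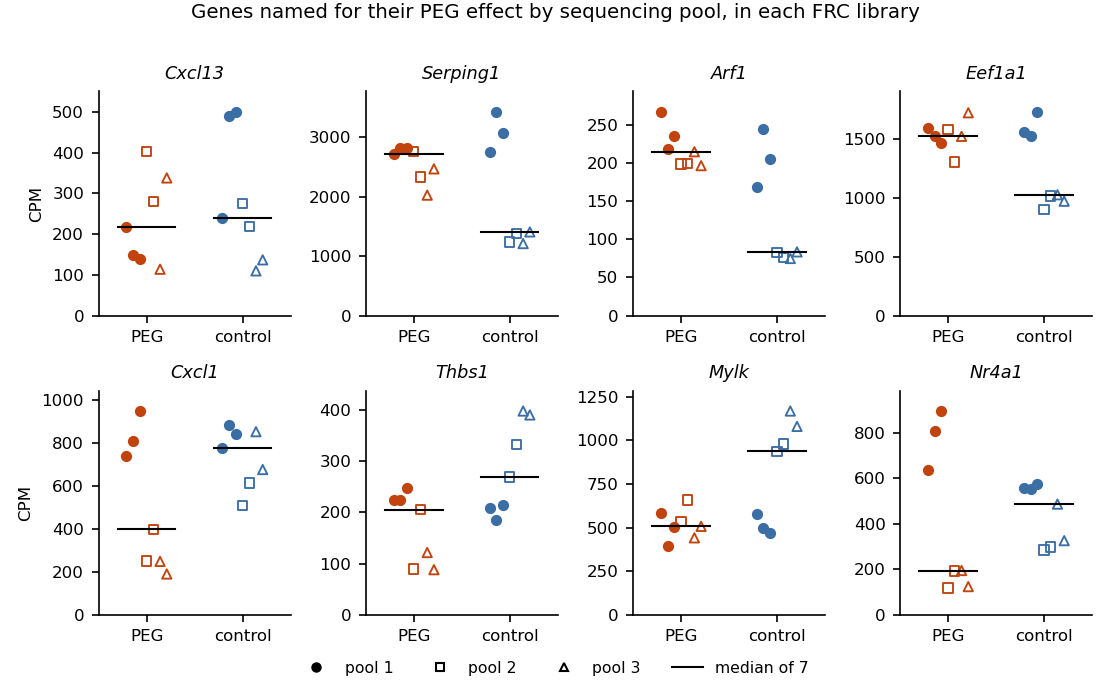
CPM (y axis, from 0) of 8 genes named for their PEG effect by pool, in each FRC library, PEG on the left and control on the right of each panel, with symbols for the pool and a line at the median of 7. For Arf1, Serping1, Eef1a1 and Mylk the controls of pools 2 and 3 stand apart from all other libraries, and Cxcl13 is lower in PEG in pool 1 and overlaps in pools 2 and 3.

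To see which differences set FRCs apart, the PEG effect in FRC was tested against that in HEV endothelial cells in a model of all 24 libraries. The libraries of the 2 cell types were treated as coming from different mice, on which the labels are silent. The HEV libraries, 6 PEG and 4 control, held 3115003 to 19948766 gene-assigned reads in PEG and 14392146 to 17160900 in control. Among 18203 genes, 2 passed an adjusted p under 0.05 (0.011%), neither of them a leading FRC gene, and 1834 had an unadjusted p under 0.05 (10.1%). Of the 20 leading genes 13 had an unadjusted p under 0.05 for this difference and 0 an adjusted one. Their choice by the FRC effect, which is part of this difference, favours a small p here. Jag1 had the smallest p among them, at -1.11 ± 0.27 in FRC and 0.70 ± 0.30 in HEV (difference in the model of both cell types -1.85 ± 0.38, adjusted p = 0.12). Psip1 (difference -2.65 ± 0.61), Pcolce2 (4.88 ± 1.13), Arf1 (1.26 ± 0.30) and Dnajc7 (1.58 ± 0.38) followed, each with an HEV value of the opposite sign. Pcolce2 was nearly unread in HEV, at most 0.0527 CPM in PEG and 1.18 CPM in control. Its HEV value and its difference therefore rest on levels near 0. Adamdec1 and Lpl, also among the 13, were low in HEV as well. Adamdec1 ran there from 1.37 to 24.9 CPM in PEG and from 2.41 to 47.6 CPM in control. Lpl ran there from 0 to 30.7 CPM in PEG and from 0 to 1.07 CPM in control. The part of fibroblast RNA in these HEV values was not tested. Eif3l was at 0.30 ± 0.21 in HEV and Gpx3 at 0.94 ± 0.52, the same sign as in FRC. The adjusted p for the difference in this model was 0.47 and 0.91. Gpx3 was low in HEV, at 3.85 to 27.8 CPM in PEG and 1.11 to 11.2 CPM in control.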

How the data were processed

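Per the labels' protocols, RNA of 1000 sorted cells per mouse was amplified by template switching, made into Nextera libraries and sequenced on an Illumina HiSeq. After removal of poor, rRNA and adapter reads, alignment used GSNAP within HTSeqGenie, and uniquely mapped reads were kept. The submitters' processing notes name the mouse build mm9, while the protocol text names a human build. The files hold, per library, counts of reads per gene deposited by the authors, and RPKM values scaled by the authors' size factors, which were not tested.

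Of 36528 gene models 85.0% were named from RefSeq (97.3% of reads), and 14595 passed edgeR's filter (count minimum 10). The counts were scaled by TMM and tested with edgeR 4.0.16 (quasi-likelihood, robust, pool as covariate, Benjamini-Hochberg adjustment) in R 4.3.3, with DESeq2 1.42.0 and limma 3.58.1 as alternatives. Values in CPM use the TMM-scaled library. SE is the size of the log2 fold change divided by the square root of F. On simulated counts of 14209 genes for PEG against control in FRC, 22% of 2-fold and 58% of 4-fold changes were recovered. Pool is inferred from the library number. The effects by pool come from an interaction model. Each library is from a different mouse of its group, as the protocol reads, while the labels hold no mouse identifier. The p-values thus reflect variation between mice together with that of library preparation and sequencing. The i5 index was not in the main fit.

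Named genes were the 10 of smallest p in each direction with a mean of at least 5 CPM and a proper symbol, core genes of the lists, up to 4 members per list, and up to 6 each for the difference between pools and for groups without overlap. Other listed members at an unadjusted p under 0.05, as well as the genes called in pools 2 and 3, were picked with their values in view. Members and lists were chosen with earlier results of these data known. A few listed genes count in their lists but are not reported here by name. The strand of the counting is not given, so reads of overlapping antisense genes cannot be told apart. Promoter sequences are from RefSeq, GRCm38.p6, and no coordinates of mm9 were used.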

Additional observations from a re-analysis of the deposited data

Results flagged for a closer look

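A library that stands away from the other 6 of its group, by the gap to its neighbour relative to the range of the group, was found in 8 of 286 groups examined, where chance gives about 1 in 20. Inhba stood at 1.75 CPM in PEG library 3, against 10.8 to 22.7 CPM in the other 6 PEG libraries. Nfat5 stood at 64.1 CPM in PEG library 2, against 40.7 to 48.5 CPM in the other 6 PEG libraries. Il7 stood at 15.0 CPM in PEG library 1, against 42.7 to 81.5 CPM in the other 6 PEG libraries. Exoc3l2 stood at 0.166 CPM in PEG library 2, against 2.70 to 6.18 CPM in the other 6 PEG libraries. H2-D1 stood at 2208 CPM in control library 20, against 2699 to 3122 CPM in the other 6 control libraries. Ccl21a stood at 4.40 CPM in control library 20, against 0.859 to 1.52 CPM in the other 6 control libraries. The summed CPM of B cell and plasma cell markers was 0.83 in PEG library 2, against 18.3 to 68.7 in the other 6 PEG libraries. The summed CPM of T and innate lymphoid cell markers was 2.86 in control library 5, against 12.4 to 30.0 in the other 6 control libraries.

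The PEG effect on Pex10 differed between the pools. The log2 effect in pools 2 and 3 minus that in pool 1 was -8.12 (edgeR interaction test, adjusted p = 0.028), and it rests on the 3 controls of pool 1, which had almost no reads of this gene.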

How the results depend on the processing

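No paired analysis was possible because the library numbers are unique and no number is shared between PEG and control. All 20 leading genes kept their sign in the 25 alternatives tried for each, which their choice by small p on the same libraries favours. The count of genes at an adjusted p under 0.05, 0 in edgeR with the filter, was 177 with no filter on low counts, 55 in DESeq2 and 26 in limma-voom. The count at an unadjusted p under 0.05, 989, was 2236 with no filter, 1574 in limma-voom, 558 in pool 1 alone and 1589 in pools 2 and 3 alone, and ran from 831 to 1100 with a library left out. For the difference between pools, 1 gene became 181 with no filter, 0 in limma-voom, 3 for any difference among the 3 pools and 0 to 4 with a library left out. For FRC minus HEV, 2 genes became 38 with no filter, 0 in limma-voom and 1 to 3 with a library left out. The 13 calls in pools 2 and 3 became 172 in limma-voom, 4 with the epithelial level, 3 with pool and i5 index, 0 with those 8 libraries alone, and 0 to 49 with a library left out. The 14 genes without overlap became 17 to 32 with a library left out, since fewer libraries must be separated. The cause was not tested for the other shifts.

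Log2 fold changes of single genes, none past the adjusted threshold in edgeR, changed sign as follows. In pool 1 alone they were Ppp2r1a -0.018, Rpl26 0.049, Cxcl12 -0.014, Serping1 -0.15, Cox6c 0.092, Eef1a1 -0.077, Clu -0.13, Thbs1 0.19, Wnt5a 0.095, Tfg -0.56, Nr4a1 0.47, Fn1 0.11, Acta2 -0.21, Fkbp5 -0.87, Slc38a2 0.17, Vcam1 -0.23, Pdgfra 0.087, Ch25h 0.27 and Icam1 0.15. In pools 2 and 3 alone they were Yap1 -0.22, Tgfb1 -0.20, Cxcl13 0.67, Il7 0.14, C3 0.057, Slc5a3 -0.11, Sgk1 -0.13 and Zup1 1.39. With pool and i5 index they were Nfat5 0.021, Pdgfra 0.030, Cxcl13 0.24, Ccl21a -0.071, C3 0.22, Slc5a3 -0.063, Ch25h 0.35 and Zup1 0.29, and among libraries with the index of the PEG libraries Nfat5 0.0049, Cxcl13 0.17, Ccl21a -0.091, C3 0.19, Slc5a3 -0.10 and Ch25h 0.27. With the epithelial level they were Il7 0.48, C3 0.046, Slc5a3 -0.30, Aldh1a2 0.015, Ch25h 0.13, Icam1 0.14 and Zup1 0.13, in limma-voom Il7 0.13, C3 0.040 and Sgk1 -0.031, and with no covariate Fkbp5 -0.26, Sgk1 -0.018 and Icam1 0.037. Sgk1 was at -6.4e-05 with the submitters' size factors and at -0.015 with all 24 libraries. With a library left out, the ranges that include both signs were Aldh1a2 -0.12 to 0.029, C3 -0.11 to 0.086, Ch25h -0.24 to 0.17, Cxcl13 -0.48 to 0.031, Icam1 -0.11 to 0.043, Il7 -0.34 to 0.063, Pdpn -0.0056 to 0.080, Sgk1 -0.078 to 0.16, Slc5a3 -0.094 to 0.19, Vcam1 -0.060 to 0.23 and Zup1 -0.35 to 0.33. Values that kept their sign but moved by over 1.5 times, beside those given above for Piezo1, Psmb8 and Nfat5, ranged as Acta2 0.10 to 0.26, Ccl21a 0.075 to 0.60, Ccn1 0.095 to 0.24, Col1a1 -0.16 to -0.022, Fkbp5 0.14 to 0.59, Fn1 -0.21 to -0.090, Nr4a1 -0.58 to -0.27, Pdgfra -0.15 to -0.013, Pex10 1.76 to 3.77, Ptgs2 -0.77 to -0.32, Slc38a2 -0.27 to -0.080, Slc6a6 0.14 to 0.41, Tfg 0.34 to 0.69, Tgfb1 0.28 to 1.44, Tnfsf11 -0.91 to -0.29 and Yap1 0.0066 to 0.27, none of these at an unadjusted p under 0.05. Of the named genes' values under alternatives, 3507 kept sign and side of the threshold, 63 passed it, 0 lost it and 100 changed sign.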

Other observations

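Transcripts of other cells of the gut wall varied among the FRC libraries without separating the groups. The summed CPM of mesothelial markers ran from 17.9 to 729 in PEG (median 80.6) and from 3.03 to 574 in control (median 42.2). That of enteric glia and neuron markers ran from 97.5 to 165 in PEG (median 137) and from 118 to 207 in control (median 178), the list of smallest p (two-sided exact permutation p = 0.074, adjusted p = 0.67 over 9 lists). Markers of the interstitial cells of Cajal, the pacemaker cells of gut muscle, summed from 8.95 to 69.5 in PEG (median 28.2) and from 6.98 to 42.2 in control (median 23.7). Erythrocyte markers summed from 0.3 to 7.51 in PEG (median 1.52) and from 0 to 19.6 in control (median 0.319).

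Beyond the genes already described, Ghitm, a mitochondrial inner membrane protein, ran from 283 to 417 CPM in PEG (median 337) and from 154 to 273 CPM in control (median 254), and Polr2e, a subunit shared by the nuclear RNA polymerases, ran from 142 to 156 CPM in PEG (median 151) and from 88.5 to 137 CPM in control (median 109). Their groups did not overlap. The small gene Serf1 ran from 18.3 to 31.9 CPM in PEG (median 25.8) and from 34.0 to 47.7 CPM in control (median 39.7), with PEG below control in all libraries.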
